A study of Mus musculus with 4 samples.

Results

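The 9 genes described here, all of retinoid metabolism and retinoic acid signalling, were read in the liver of obese mice given GALP or saline. They were Rbp4, Lrat, Aldh1a1, Aldh1a2, Aldh1a3, Cyp26a1, Cyp26b1, Rara and Rarb. The members were taken by gene name, as every probe that the array files give under 1 of the 9 names, and the set was chosen by earlier results of the same GALP over control values. The values below are therefore a description of these genes and not a test of them. The names covered 12 of 41174 probes and 9 of 26582 gene names, and all 12 probes had a value on every array. Of the 12 probes, 7, from 6 genes, stood well above background, in 1 channel or both, on each array, as did 15713 of the 41037 probes of the series with a value on all 4 arrays.

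Retinol (vitamin A) travels in blood on RBP4, which hepatocytes make and secrete. LRAT esterifies retinol, and the liver keeps most of the body's store as retinyl esters in the lipid droplets of stellate cells. Retinol is oxidised to retinaldehyde and then, by the ALDH1A enzymes, to retinoic acid, which binds the nuclear receptors RARA and RARB with an RXR partner. CYP26A1 and CYP26B1 hydroxylate retinoic acid and so clear it. Cyp26a1 and Rarb are classical target genes of the receptors, and both promoters are known for a direct repeat of the receptor hexamer with a spacer of 5 bases (DR5).

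Male C57BL/6J mice with diet-induced obesity (DIO), bought at 8 weeks of age and at least 40 g after 14 weeks of a high-fat diet, received the hypothalamic neuropeptide GALP (galanin-like peptide, porcine, 1 nmol as the labels give it) or saline by the nose, 2 µL once a day for 11 days. Liver RNA was pooled from 4 mice that lost more weight on GALP and, separately, from 4 that lost less, and RNA of 8 saline mice made up the control pool. Both GALP pools were hybridised against that control pool on 60-mer Agilent arrays with the dyes exchanged, which gave 4 arrays on 1 slide. The peptide was dissolved with α-cyclodextrin and the labels name only saline for the control, so the peptide and this solvent cannot be told apart.

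A level here is the background-subtracted, dye-normalized signal of a channel in array units, and a ratio is the log2 of GALP over control. Since 1 extract of each pool went onto both of its arrays, these were averaged first, and a mean ± SD covers the GALP pools (n = 2). The control is 1 pool, its own spread enters no SD, and both pools' ratios share it. In pooled tissue, fewer cells of a type and less RNA per cell cannot be told apart.

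The probe behind the largest difference among the members is shown whole, with the DR5 matches in the promoter windows of the 2 genes that have one. The Cyp26a1 probe lies on the plus strand of chr19:37775566-37775625 (mm9, as the file headers give it), and the files hold no exon annotation for it. The promoter stretches are from RefSeq on GRCm38.p6, written 5′ to 3′ on the strand of the gene, with the DR5 match in capitals.

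Cyp26a1 probe: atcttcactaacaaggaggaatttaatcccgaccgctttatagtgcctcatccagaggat
Cyp26a1 promoter: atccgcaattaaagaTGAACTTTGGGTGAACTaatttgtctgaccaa
Rarb promoter: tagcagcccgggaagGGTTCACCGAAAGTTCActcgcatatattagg

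The Cyp26a1 stretch is chr19:37697761-37697807 on the plus strand, with the match 32 to 16 bases before the first base of the gene and read on the opposite strand. The Rarb stretch is chr14:16575498-16575544 on the minus strand, with the match 53 to 37 bases before the gene. The search took AGGTCA or AGTTCA or GGGTCA or GGTTCA as a hexamer, with 5 free bases between 2 hexamers, on both strands of windows from 250 bases before to 50 bases after each start. Of the members, 8 were in the table, and 2 of these held a DR5, beside 31 of 27025 genes (0.11%). None of the 51 other genes of the pathway in the table held one. With a spacer of 2 bases (DR2), which also binds these receptors, 0 of the 8 members and 0.31% of all genes had a match. With both hexamers as AGGTCA only, no member had a DR5. A match is a description of the letters and shows no binding in these livers.

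Of the clearing enzymes, Cyp26a1 was lower in both GALP pools. Its GALP signal was 123 (GALP in Cy5) and 90.6 (GALP in Cy3) in the greater weight loss pool, and 106 and 90.5 in the less weight loss pool. The control signal on the same arrays was 398, 357, 370 and 400. All 4 GALP channels lay below all 4 control channels, and all 8 channels were well above background. Among the probes well above background, 2.5% showed such a separation in this direction. The log2 ratio was -1.83 in the greater and -1.97 in the less weight loss pool, with a mean of -1.90 ± 0.10, which is 3.74-fold lower. The size depended on the background correction. With normexp and loess in place of the processed signals, the mean was -0.594 with an offset of 50 and -1.458 with an offset of 1. The gene was called lower in both, with the p-values of the scanner software kept.

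**Figure D1:**
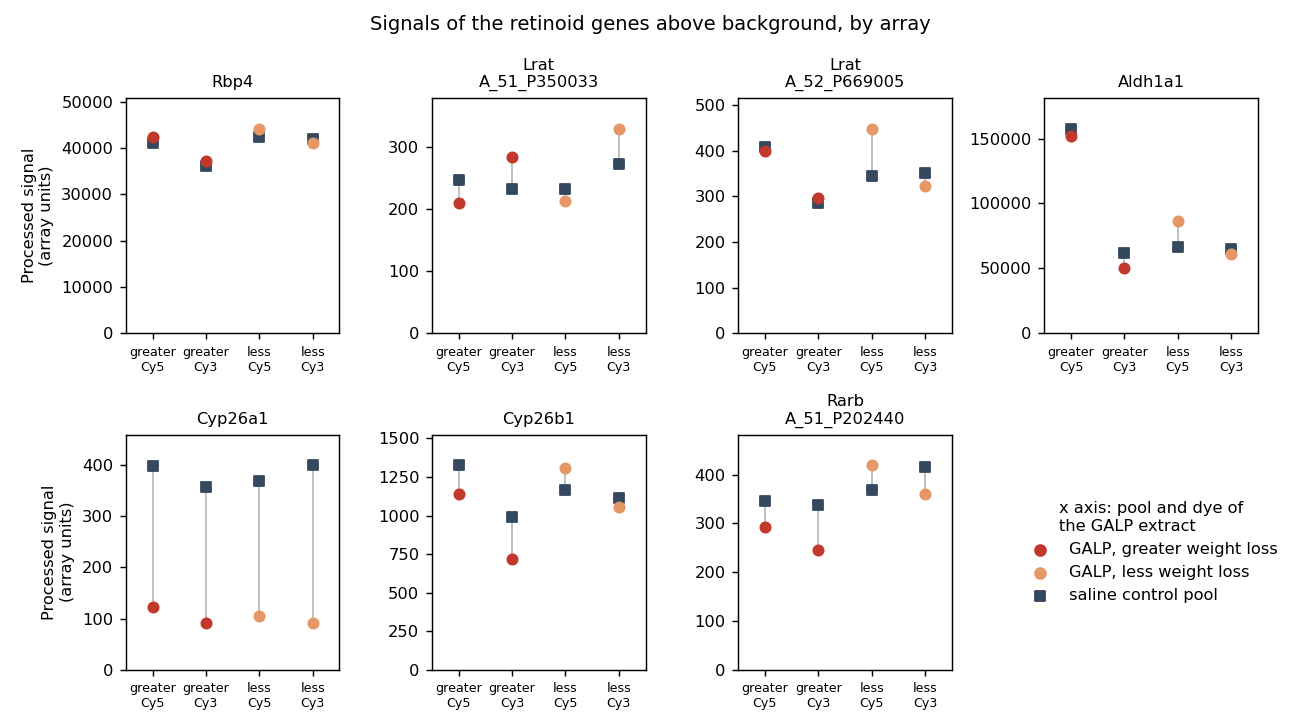
Processed signal (y axis, array units) of the 7 member probes well above background on each of the 4 arrays (x axis, GALP pool and dye of the GALP extract), with circles for GALP and squares for the control pool. Cyp26a1 is the panel in which every GALP point (90.5 to 123) lies far below every control point (357 to 400).

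Cyp26a1 was the 1 member of 9 that met the rule of the methods. That rule was read as asking each pool for a fold above 1.5 or below 0.75, and each of the 4 arrays for the same direction and for a p-value below 0.01 from the scanner software. It called 54 of 41037 probes lower (0.132%) and 24 higher (0.0585%). Cyp26a1 ranked 12 from the lowest of the 54 and 15 from the lowest of the 15713 probes well above background by its mean, 57 by the greater and 33 by the less weight loss pool. The pools were close to each other for this gene, and 18 of the 54 probes had an SD between pools no larger than its 0.10. Dye orientation moved the Cyp26a1 ratio by more than the pool did. GALP in Cy5 gave values higher by 0.29 and 0.34 than GALP in Cy3, whereas the pools differed by 0.14.

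Only 1 probe on the array carries the name Cyp26a1, so no other probe of the gene can be set beside it. Its pattern over the 4 arrays was nearest, by Euclidean distance of the log2 ratios among probes well above background, to a probe named NAP095777-001 (distance 0.69), and then to a probe of Fdps (0.70), which makes farnesyl diphosphate in the sterol pathway. A probe of Pdia6, a protein disulfide isomerase, followed at 0.92. Then came a probe of Pik3c2g, a phosphoinositide kinase, at 1.01, and LF198182 at 1.04. For 3 of these genes the array has other probes above background, and they were nearer to 0. The other Fdps probe had a mean of -0.29 ± 0.11 against -1.66 ± 0.20. The other 3 Pdia6 probes had means of -0.10 to -0.05 against -1.85 ± 0.25, and the other Pik3c2g probe above background had -0.59 ± 0.23 against -1.42 ± 0.02. The probes of each gene thus disagreed in size.

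Cyp26b1, the other clearing enzyme, was not separated in this way. Its GALP signal was 1137 and 720 in the greater and 1311 and 1053 in the less weight loss pool. The control signal was 1326, 993, 1169 and 1114, so the GALP and control channels overlapped. The log2 ratio was -0.34 in the greater and 0.04 in the less weight loss pool (mean -0.15 ± 0.27), and it met the p-value on 0 of 4 arrays. The difference of -0.38 between the pools was larger than the difference between dyes within either pool (0.24 and 0.25). It was the 1 probe of the 7 above background for which this held, beside 16.3% of the 15713 probes. With 1 pool of each kind, the difference between greater and less weight loss could not be tested. The Cyp26b1 probe lies at chr6:84521952-84522011 (mm9).

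**Figure D2:**
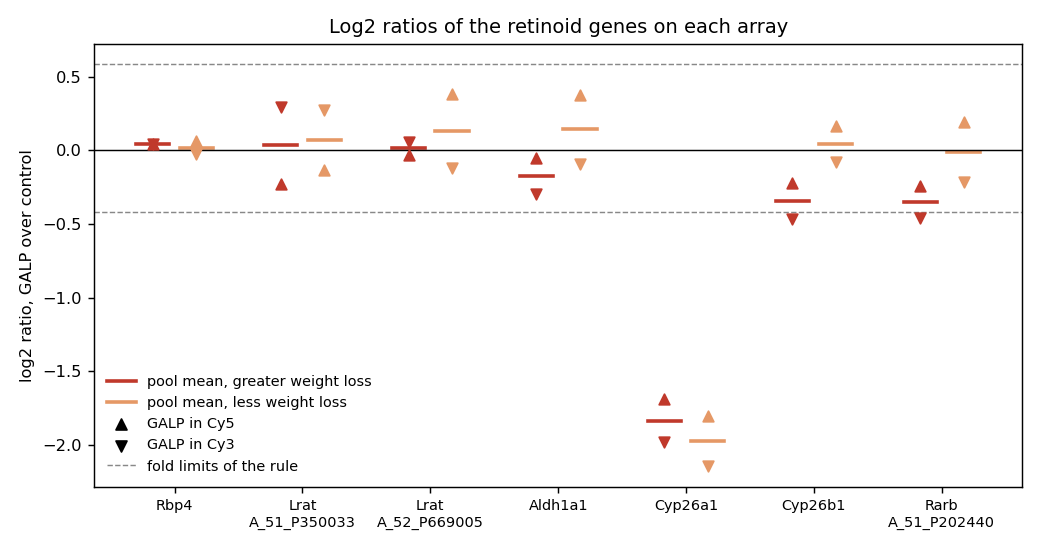
Log2 ratio of GALP over control (y axis) of the 7 member probes above background (x axis), with triangles for single arrays by dye orientation, bars for pool means and dashed lines for the fold limits of the rule (log2 of 0.585 and -0.415). The 4 values of Cyp26a1 lie between -2.14 and -1.69, and all pool means of the other genes lie between the dashed lines.

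Of the enzymes that form retinoic acid, Aldh1a1 was measured in every channel and the other 2 were at or near background. The Aldh1a1 probe (chr19:20717764-20717823) had GALP signals of 152176 and 50189 in the greater and 86555 and 61225 in the less weight loss pool. Its control signals were 157801, 61663, 66584 and 65147. Both channels of the first array were the highest, and the GALP and control channels overlapped. The log2 ratio was -0.18 in the greater and 0.14 in the less weight loss pool (mean -0.02 ± 0.23). Aldh1a7, a close copy of Aldh1a1 in the mouse, had a mean of -0.14 ± 0.04. Whether its transcript binds the Aldh1a1 probe was not tested.

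Aldh1a3 had 2 probes. The probe of its RefSeq transcript (chr7:73535785-73535844, minus strand) had GALP signals of 29.9 and 22.9 in the greater and 23.1 and 29.9 in the less weight loss pool, against control signals of 8.42, 10.1, 7.52 and 15. The GALP channels lay above the control channels on all 4 arrays without overlap, as 0.245% of the probes outside the well-measured set did. However, only 1 GALP channel of 4 and none of the 4 control channels stood well above background. The lowest signals that counted as well above background ran from 22.4 to 47.7 over the 8 channels, so no fold could be bounded for Aldh1a3. The log2 ratio was 1.5 in the greater and 1.31 in the less weight loss pool (mean 1.40 ± 0.14), and the p-value was below 0.01 on none of the 4 arrays. It met the folds and the direction of the rule but not the p-value, and without the p-value 0.375% of all probes would be called higher and 0.877% lower.

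The 2nd Aldh1a3 probe (chr7:73553907-73553966) was at background in all 8 channels, with GALP signals of 6.18 to 12.3 and control signals of 6.28 to 13.1. The software had put a substitute for background in 7 of these 8 channels, and 3 of its 4 ratios were set to 0. This probe therefore gave no reading to set beside the first. Aldh1a2 (chr9:71143931-71143990), the main enzyme of this family in many embryonic tissues, was well above background in no channel. Its GALP signals ran from 8.58 to 14.9 and its control signals from 10.8 to 22, and no fold is given.

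**Figure D3:**
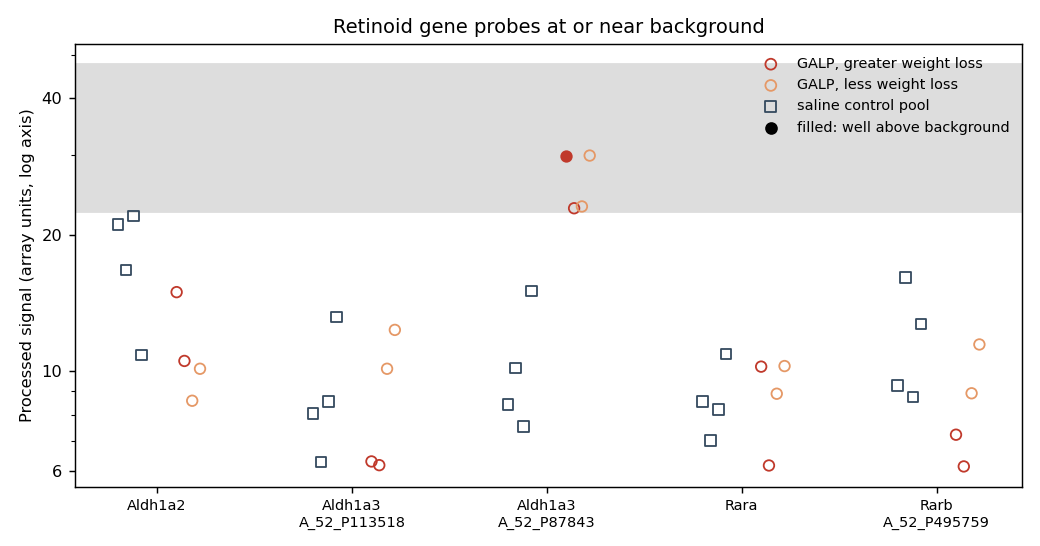
Processed signal (y axis, array units, log axis) of the 5 member probes that were not well above background on every array (x axis), with circles for GALP, squares for control and filled symbols for the channel that was well above background. The grey band spans the lowest signals that counted as well above background (22.4 to 47.7), and the GALP points of the Aldh1a3 probe A_52_P87843 lie inside it while all control points lie below it.

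The retinol carrier and the esterifying enzyme had pool means close to 0. The Rbp4 probe (chr19:38191129-38191188) had GALP signals of 42428 and 37200 in the greater and 44252 and 41161 in the less weight loss pool, against control signals of 41133, 36104, 42369 and 41941. The channels overlapped, and the mean log2 ratio of 0.03 ± 0.02 had the smallest spread between pools of the 7 probes. Lrat had 2 probes, both above background. The first (chr3:82699609-82699668) had a mean of 0.051 ± 0.025 and the second (chr3:82696805-82696864) a mean of 0.07 ± 0.08. On the first Lrat probe the dye orientation moved the ratio by -0.53 and -0.40 (GALP in Cy5 minus GALP in Cy3), opposite in sign to the dye difference of Cyp26a1, Cyp26b1, Aldh1a1 and Rarb in both pools. Its GALP signals were 210, 284, 212 and 329, and its control signals were 246, 231, 232 and 273.

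Of the receptors, Rarb was measured and Rara was at background. Rara (chr11:98831859-98831918) had GALP signals of 6.17 to 10.2 and control signals of 7.02 to 10.9, with 0 of 8 channels well above background. The array carries 1 Rarb probe (chr14:17263511-17263570) in 10 copies, which gives the only reading of technical spread within an array among the member probes. Its mean GALP signal was 292 and 245 in the greater and 419 and 360 in the less weight loss pool, and its control signal was 346, 337, 368 and 416. The channels of GALP and control overlapped over the 4 arrays.

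The copies of the Rarb probe did not differ in direction within an array. In the greater weight loss pool the log2 ratio was -0.24 ± 0.08 over 9 kept spots and -0.46 ± 0.10 over 10 spots (SD over spots), with all spots below 0. In the less weight loss pool it was 0.19 ± 0.11 over 7 kept spots, all above 0, with GALP in Cy5, and -0.21 ± 0.11 over 10 spots, all below 0, with GALP in Cy3. The difference between dye orientations in that pool (0.40) was larger than the spread of the spots. Over the pools the mean was -0.18 ± 0.24, and the gene was not called. The other Rarb probe spans 26709 bases of the genome between its ends (chr14:17381032-17407740) and so joins separate exons. It was at background in all 8 channels.

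The rest of the pathway was read from 7 lists of 71 genes, of which 69 were on the array and 47 had a brightest probe well above background. By the rule of the methods, 0 of the 69 genes had a called probe in either direction. In limma over all probes, 0 of 41037 reached an adjusted p under 0.05 (0.0%), while an unadjusted p under 0.05 was reached by 2049 probes with a higher (4.99%) and 2710 with a lower value (6.6%). At that unadjusted level the brightest probes of the 47 genes gave 2 higher (4.3%) and 3 lower (6.4%). Over the 11403 gene names with such a probe the shares were 8.68% and 11.4%. The median log2 ratio of the 47 genes was -0.04, beside -0.01 over these gene names.

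These 5 genes are named although they fall outside the rule for named genes. Those with a higher value were Ces1d, a carboxylesterase that hydrolyses esters (0.25 ± 0.05), and Cd38 (0.11 ± 0.01), which is induced by retinoic acid in myeloid cells. Those with a lower value were Rdh11, a retinaldehyde reductase (-0.417 ± 0.004), Stra6l, a receptor for RBP4 in liver (-0.21 ± 0.02), and Adh1, a retinol-oxidising alcohol dehydrogenase (-0.11 ± 0.01). The 2 Rdh11 probes above background had close values, the other at -0.44 ± 0.05.

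**Figure D4:**
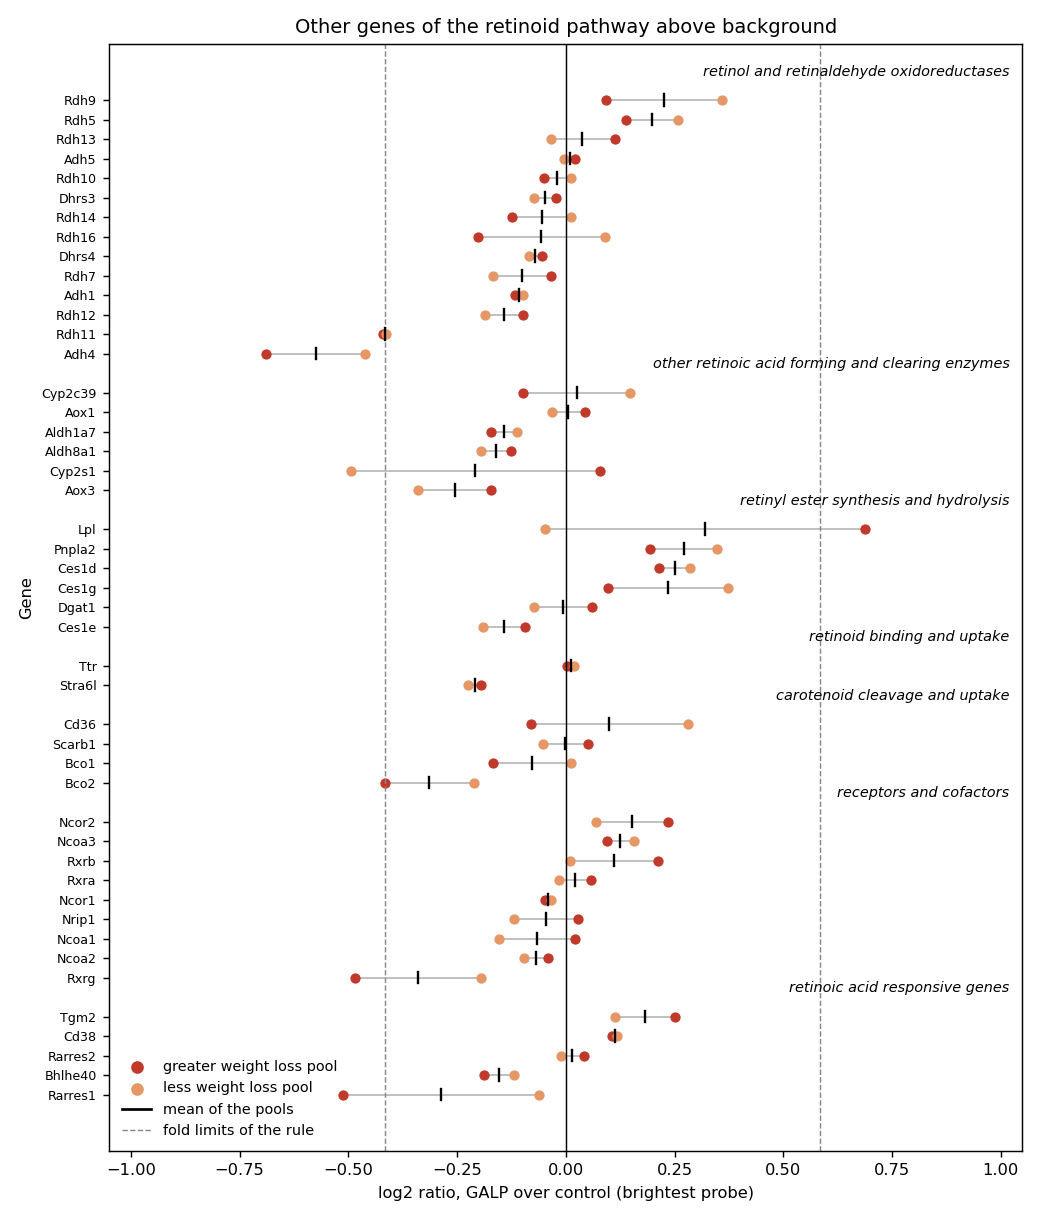
Log2 ratio of GALP over control (x axis) of 46 other pathway genes above background (y axis, grouped by list), each at its brightest probe, with a point for each pool, a tick for their mean and dashed lines for the fold limits of the rule. Adh4 is the gene with both pools beyond the lower limit, and Lpl passes the upper limit in the greater but not in the less weight loss pool.

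The genes with the largest mean in size in their lists, each gene read at its brightest probe, stayed outside the rule. Among the 14 oxidoreductases of retinol and retinaldehyde above background, 4 had a mean above 0 and 10 below 0. Adh4, an alcohol dehydrogenase that oxidises retinol, had the largest (-0.69 in the greater and -0.46 in the less weight loss pool, mean -0.58 ± 0.16). It passed the fold and direction of the rule but reached the p-value on 2 arrays of the 4. Among the 6 other enzymes that form or clear retinoic acid, Aox3, an aldehyde oxidase, had -0.26 ± 0.12 at its brightest probe.

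Lpl, which hydrolyses lipoprotein lipids and retinyl esters, had 0.69 in the greater and -0.05 in the less weight loss pool. The 2nd Lpl probe gave 0.43 and -0.06, so both probes had the higher value in the greater weight loss pool. Bco2, which cleaves carotenoids, had -0.42 and -0.21. Among the 9 receptors and cofactors above background, Rxrg had the largest mean in size at the brightest probe (-0.34, with -0.48 and -0.19 in the pools). Of the other probes above background, 1 of the corepressor Ncor1 had a larger one (-0.41), against -0.04 at its brightest probe, and 1 of the coactivator Ncoa3 had 0.35. By comparison, Rxra, the main RXR of liver, had a mean of 0.02 ± 0.05. Of the 5 retinoic acid responsive genes above background, 3 had a mean above 0 and 2 below 0, and Rarres1 was farthest from 0 at the brightest probe (-0.51 and -0.06, mean -0.29). A dimmer probe of Tgm2, a transglutaminase, was farther from 0 (0.73 and 0.46, mean 0.60). Its control was well above background in 2 channels, and it met the p-value on 0 arrays. In the less weight loss pool it gave -0.28 with GALP in Cy5 and 1.19 with GALP in Cy3. The brightest Tgm2 probe had a mean of 0.18 and the remaining one 0.19.

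Markers of liver were present, with 7 of 8 hepatocyte markers above background and Alb (albumin) at 0.05 ± 0.09. Markers of other organs differed between the pools. All 10 pancreas markers were above background and were lower in the greater weight loss pool (log2 ratio -4.11 to -2.88, summed GALP signal 10384 to 14824 against 140212 to 167809 in the control). In the less weight loss pool all 10 were higher (0.50 to 2.18, summed signal 223610 to 234408 against 131547 to 141720). Cyp26a1 was about as low in both pools (-1.83 and -1.97). Its value without either pool is that of the other. The part of pancreas tissue in the Cyp26a1 value was not tested.

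Of the 16 stomach and intestine markers, 7 were above background, and their values differed in sign. Their summed GALP signal was 20463 to 25292 against 26152 to 35268 in the control for the greater weight loss pool. For the less weight loss pool it was 30190 to 30563 against 32088 to 33123. Most of the GALP sum came from Fabp2 (19460 to 25430), so it says little of the other markers. Whether the Fabp2 signal came from gut tissue was not tested. Gkn2 and Tff1, secreted proteins of stomach mucosa, were called lower. Fabp2, a fatty acid binding protein of enterocytes, had -0.28 in the greater and -0.19 in the less weight loss pool. Sis, a brush border disaccharidase, had -1.77 and -0.90, with only 1 GALP channel well above background. Its values were -3.42 and -1.59 with GALP in Cy5, but -0.11 and -0.22 with GALP in Cy3. The other 3 had opposite signs in the pools. Gkn3 had -3.19 and 0.70 and Tff2 had -3.80 and 0.68, whereas the trefoil peptide Tff3 had 1.42 and -1.63. The Gkn2 signal was 6.22 to 11.3 in GALP, at background, and 232.5 to 278.2 in the control. The Tff1 signal was 26.1 to 35.4 against 339 to 376. The part of stomach tissue in the Cyp26a1 value was not tested.

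Among the cell types of liver, Lyve1, a receptor of sinusoidal endothelium (0.74 ± 0.05), and Marco, a scavenger receptor of Kupffer cells (0.87 ± 0.25), were called higher, while the medians of their lists were nearer to 0. The 2nd Lyve1 probe had a mean of 1.46 and was not called. It had 1 GALP channel and no control channel well above background. The 7 sinusoidal markers had a median of 0.07 in the greater and 0.04 in the less weight loss pool. Of these, 5 had a mean above 0, among them Stab1 (0.22) and Stab2 (0.13). The 2 below 0 were Kdr (-0.12) and Clec4g (-0.12). The 6 Kupffer cell markers had medians of 0.005 and 0.14. Of these, 3 had a mean above 0, Marco, Adgre1 (0.43) and Cd5l (0.14). The 3 below 0 were Timd4 (-0.16), Vsig4 (-0.07) and Clec4f (-0.001). None of the 9 stellate cell markers above background was called, and their median was 0.25 in the greater and 0.18 in the less weight loss pool. Their summed signal was 42081 to 46946 against 35659 to 42051 in the control for the greater and 33352 to 48162 against 34985 to 43785 for the less weight loss pool. Most of the GALP sum came from Dcn (18730 to 30670, log2 ratio 0.15 and -0.06 in the pools), so it says little of the other stellate cell markers. Lrat, which stellate cells express, had means of 0.05 and 0.07. Of the 8 markers of hepatocytes around the central vein, 6 were above background, with a median of -0.27 in the greater and -0.05 in the less weight loss pool. Their values ran from -0.76 to 0.10 and from -0.65 to 0.31, with Lgr5 lowest in both pools. Of these 6, 2 had a mean above 0. Of the 6 markers of hepatocytes around the portal vein, 5 were above background, with medians of 0.35 and -0.03. The 4 bile duct markers above background had medians of -0.19 and -0.05. The part of these cell types in the values of the members was not tested.

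**Figure D5:**
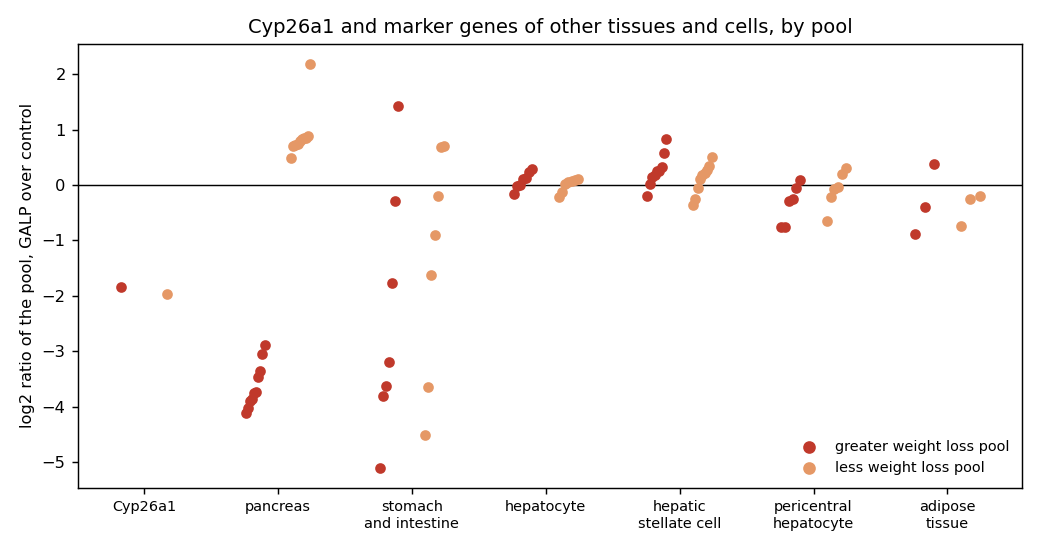
Log2 ratio of each pool, GALP over control (y axis), of Cyp26a1 and of the markers above background in 6 lists (x axis), with 1 point per gene and pool. The pancreas markers lie below 0 in the greater and above 0 in the less weight loss pool, and Cyp26a1 lies at -1.83 and -1.97.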

How the data were processed

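Liver RNA was compared on 4 two-colour arrays. The scans were read, per the file headers, with Agilent Feature Extraction 12.0.3.1 (the submitters' processing notes give 11.0.1.1). Each channel's deposited intensity is the processed signal of this software, after background subtraction and LOWESS dye normalization. The deposited log10 ratio of a spot sets Cy5 over Cy3, and its deposited p-value rests on an error model within the array. As an alternative, the authors' series table was used. Where the deposited ratio was not 0, its log10 ratios were these, turned to GALP over control. At 29.7 to 35.5% of the spots per array the deposited ratio was 0, and there equality was not checked. Each array held 43379 spots, 40.5 to 46.7% of them well above background per channel and 0 saturated. Precision is limited by having 4 arrays.

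Ratios were turned to GALP over control on the log2 scale. Spots with an outlier mark (232 to 319 per array) were left out, spots of a probe were averaged, and then the arrays of a pool. The labels give the control channel a weight loss group too, whereas the methods describe 1 control pool, which was used as such. limma 3.58.1 (R 4.3.3) tested the 2 pool ratios against 0 with 1 residual degree of freedom and Benjamini-Hochberg adjustment over 41037 probes, so the spread of the control enters no p-value. The p-values rest on the spread between these 2 pools, which limma draws towards that of all probes. The pools were sorted by weight loss, so this is not the spread between mice. A probe not well above background on 1 side was to be given as a bound from signals after Aquantile.

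The members and lists were chosen with earlier results of these data known. The named genes are the 9 members at every probe, of each pathway list the gene with the largest mean ratio in size at its brightest probe (or any called gene), the 5 probes nearest to Cyp26a1, and Alb, Gkn2, Tff1 and called genes of the marker lists. Exceptions are stated. A gene that this rule names is counted with its list but its values are not reported here. Probe positions are on mm9, as the files give them. Gene names are those of the files. Accessions of 29416 probes (71.4%), among them 11 of the 12 member probes, were found in RefSeq. Promoters are from RefSeq on GRCm38.p6, where 8 of the 9 members were found. Both the rule and the limma fit were run on simulated data. The shift put into the limma simulation was larger than the mean ratio of any member in size. It therefore does not show what the fit detects at the sizes reported here. Tables were made with pandas 2.3.3 and numpy 2.4.6 in Python 3.11.15 and figures with matplotlib 3.10.9.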

Additional observations from a re-analysis of the deposited data

How the results depend on the processing

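Cyp26a1 was called lower under all 12 alternatives of the rule, but most of these could not have changed its call. The series table, the outlier marks kept and the probes well above background alone left its mean at -1.903. Every array met the limits of the rule, so fewer arrays or a looser p-value kept the call. The normexp and centred settings kept the p-values of the scanner software. The mean log2 ratio was -0.594 after normexp (offset 50) with loess and -1.458 with an offset of 1, which was added after seeing the data. It was -1.745 with GALP in Cy5 alone and -2.061 with GALP in Cy3 alone, and -1.973 to -1.833 when either pool was left out. Aldh1a3 was called too when no p-value was asked (2 members called). The probes called higher and lower numbered 9 and 26 after normexp (offset 50), 134 and 140 with GALP in Cy5 alone, 140 and 156 with GALP in Cy3 alone, 53 and 167 with the p-value on 1 array of each pool, and 154 and 360 without it. With a pool left out they numbered 96 to 122 and 150 to 162, where the fold was asked of 1 pool and the direction and p-value of 2 arrays. Of the other pathway genes, 2 (Adh4 and Ncor1) were called with GALP in Cy5 alone, 1 (Adh4) with the p-value on 1 array of each pool and 1 (Adh4) without it, and 0 to 2 with a pool left out (2 without the less weight loss pool, Lpl among them). In limma, 42 probes were higher and 53 lower after normexp (offset 50), 39 and 67 with the pool as a random block (consensus correlation -0.39), and 0 and 1 over probes well above background. The random block setting took the 4 arrays as observations, although both arrays of a pool carry the same extract. Its counts therefore rest in part on technical repeats and not on more pools. The members with a DR5 went from 2 to 0 with both hexamers as AGGTCA only. The mean ratio of the brightest Lrat probe moved from 0.174 with GALP in Cy5 alone to -0.031 with GALP in Cy3 alone. The other Lrat probe gave -0.229 (greater) and -0.133 (less weight loss pool) with GALP in Cy5. With GALP in Cy3 it gave 0.296 and 0.271. The cause of these moves was not tested. limma with 1 pool left out has no residual degree of freedom and was not run. No paired analysis was possible because the groups share 1 control pool and their replicate numbers mark dye orientations of 1 extract. For Aldh1a2, Aldh1a3 and Rara the signal over background limits what can be read.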
